A study of Mus musculus with 18 samples.

Results

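The comparison set myotubes given a small interfering RNA (siRNA) against dystrophin beside myotubes left untreated, on 7 and 4 of the 18 arrays of the series. Members were all probes whose detection p was under 0.05 on at least 4 of the 18 arrays, which kept 19437 of the 46632 probes. Of these, 14884 had a gene name, for 10565 genes. The cells were primary cultures from limb muscles of C57BL/10 mice aged 3 to 5 days. Cultures of the dystrophin siRNA group received the siRNA at 100 nM with the reagent Oligofectamine on days 2 and 4 after seeding and were collected on day 6, when they had differentiated for 48 h. A further 7 cultures received an siRNA against GL2, a firefly luciferase absent from mouse cells, on the same schedule. Untreated cultures are described only as untreated, and no reagent or siRNA is mentioned for them. An effect of dystrophin siRNA and one of transfection thus cannot be told apart against them, and for the main genes below the GL2 siRNA value is given too. Cells of different mice were mixed on each of 4 occasions, and the labels do not tie arrays to occasions, so cultures may share a mixture and the p-values measure only the spread between these cultures.

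Dystrophin is a long rod-shaped protein under the muscle membrane that ties the actin cytoskeleton to the dystroglycan and sarcoglycan complex and, through it, to the matrix outside the cell. Its loss causes Duchenne muscular dystrophy. When myoblasts fuse into myotubes they leave the cell cycle and switch on contractile proteins first, and the genes of mature fibres later. Those genes encode fast and slow myosins, energy enzymes, ion pumps, calcium stores and muscle-specific ubiquitin ligase adaptors.

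Each array read 17551 to 18530 probes above background, which is 37.6% to 39.7% of the array, and precision is limited by how many arrays each group has. Values are normalized log2 signals, changes are log2 differences of group means with the standard error (SE) of a limma fit over all 18 arrays, and a probe was called at an adjusted p under 0.05. Arrays were grouped into 4 clusters, a number set in advance, by how they deviated together from their group means. Cluster membership is known only from the data and was weak for some untreated arrays. Untreated array 1 correlated 0.1541 and 0.0573 with GL2 siRNA and dystrophin siRNA array 1 of its cluster, and 0.0914 with dystrophin siRNA array 3 of another. A fit with these array clusters as a block is given where no gene of a list was called or where a count below changed by over 1.5 times. Of 8 myotube markers 6 were detected, all on every array, among them *Des*, *Ckm* and *Myog*, and none was called. The cultures also held RNA of other cells: 9 of 10 fibroblast, 7 of 12 macrophage and 9 of 10 endothelial markers were detected, and none was called. With array clusters as a block, 1 myotube marker was lower and 1 higher, and 1 macrophage marker was lower. Macrophage markers moved with the siRNA groups, with 7 of 7 below 0 at a median of -0.65, and the mean of the list was 8.66 to 10.35 on the dystrophin siRNA arrays, 8.63 to 10.35 on the GL2 siRNA arrays and 9.92 to 10.17 on the untreated arrays. All 4 detected myoblast markers lay above 0, at a median of 0.25, with list means of 9.57 to 9.93 on dystrophin siRNA arrays, 9.54 to 9.67 on GL2 siRNA arrays and 9.40 to 9.48 on untreated arrays. The part of these cells in the results below was not tested, and in such bulk samples fewer cells of a type and less RNA per cell cannot be told apart.

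*Dmd*, the target of the siRNA, had a lowest, median and highest level of 8.07, 8.32 and 8.52 on the 7 dystrophin siRNA arrays, against 10.25, 10.05, 10.25 and 10.32 on the 4 untreated arrays. Every dystrophin siRNA array lay below every untreated array. The signal left was 26.8% of the untreated signal, a change of -1.90 (SE 0.11, adjusted p = 1.8e-08), and an exact two-sided permutation test gave p = 0.00303, the smallest that 330 splits of 11 arrays allow. On the GL2 siRNA arrays *Dmd* differed from untreated by 0.10 (adjusted p = 0.79). Another *Dmd* probe was at -0.67 (SE 0.18, adjusted p = 0.11), with levels of 5.91, 6.67 and 7.00 (lowest, median, highest) against 7.10, 7.36, 7.30 and 7.26.

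Of the 19437 detected probes, 390 were called, which is 2.01%, and 270 of them were lower and 120 higher in dystrophin siRNA-treated myotubes. The lower probes had a median change of -0.83 and the higher ones of 0.70, and the plot of changes against p-values shows that the smallest p-values lay on the lower side. With GL2 siRNA against the same untreated arrays 321 probes were called (1.65%), and the direct difference between dystrophin siRNA and GL2 siRNA called 1608 (8.27%). With 1 brightest probe a gene, 193 of 10565 genes were lower (1.83%) and 72 higher (0.681%), and the median change of all genes was 0.01. The count rested on the small untreated group: without untreated array 1, 2, 3 or 4, 245, 256, 223 and 237 probes were called, of which 60, 68, 43 and 51 were higher. Leaving out dystrophin siRNA array 6 lowered the higher probes to 75. The groups compared did not overlap for 1027 of the 19437 detected probes, among them 262 of the 270 lower and 112 of the 120 higher ones. Genes with the largest changes below were picked from called probes without overlap, so their separation was fixed by that choice. The shares of 1.83% and 0.681% are the background of every list count below, and a single call is not read as a result about its list.

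**Figure D1:**
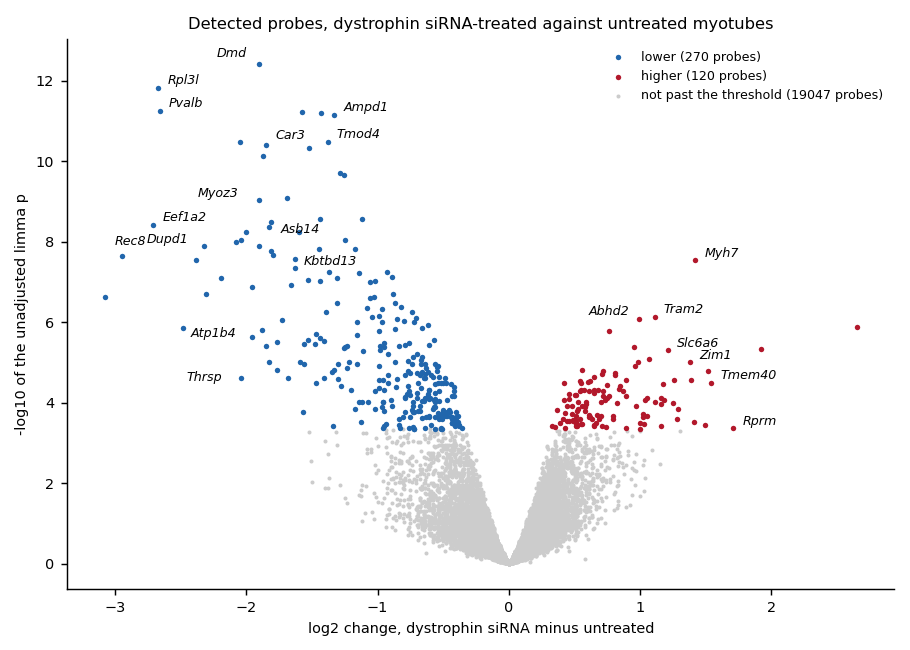
Change of each detected probe (x axis, log2, dystrophin siRNA minus untreated) against the strength of its test (y axis, minus log10 of the unadjusted p). Blue points are the 270 probes called lower, red points the 120 called higher, grey points the rest, and named points are genes described in the text.

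Several genes of the contractile scaffold were lower. Among 33 measured genes of the Z-disc, M-band and filaments, 9 were lower and none higher, with 28 of 33 below 0 and a median of -0.21, beside -0.05 with GL2 siRNA. With array clusters as a block, 9 were lower and 2 higher. *Myoz3* encodes calsarcin 3, a Z-disc protein of fast fibres that binds calcineurin. It reached 6.59, 7.19 and 7.61 (lowest, median, highest) on the dystrophin siRNA arrays, against 9.32, 9.14, 8.78 and 8.91 on the untreated arrays. No dystrophin siRNA array came near the untreated range, and the change was -1.90 (SE 0.17, adjusted p = 2.9e-06), beside 0.19 (adjusted p = 0.75) with GL2 siRNA.

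*Kbtbd13*, a muscle kelch protein whose human gene is mutated in nemaline myopathy, was measured at 6.99, 7.48 and 7.69 with dystrophin siRNA, against 9.55, 8.83, 8.84 and 8.80 untreated. The groups did not overlap, although untreated array 1 stood above the other untreated arrays. Its change was -1.63 (SE 0.19, adjusted p = 5.8e-05), with GL2 siRNA at 0.32 (adjusted p = 0.56). *Igfn1*, a Z-disc partner of the Ky protein, changed by -2.0 (SE 0.20, adjusted p = 1.2e-05), *Tmod4*, a cap of the pointed end of thin filaments, by -1.38 (SE 0.10, adjusted p = 1.9e-07) and *Myot*, the Z-disc protein myotilin, by -0.92 (SE 0.17, adjusted p = 0.0085). *Cmya5*, *Tcap*, *Synm* and *Pdlim3* were also lower, between -0.85 and -0.47. The call of *Synm* was lost without untreated array 1 and that of *Pdlim3* without untreated array 2 or 3 (adjusted p up to 0.077 and 0.085). The direct difference from GL2 siRNA was also fitted with the array number as a block, a pairing the labels do not give. It missed the threshold for *Myot* (-0.30, adjusted p = 0.22) and *Pdlim3* (-0.22, adjusted p = 0.17). *Igfn1*, *Tmod4*, *Cmya5*, *Tcap* and *Synm* passed it, all lower (adjusted p up to 0.0016).

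Of 10 measured genes of myofibril assembly and upkeep 3 were lower and none higher, at a median of -0.15, beside 0.24 with GL2 siRNA. *Ky*, the kyphoscoliosis peptidase, whose loss in mice causes a muscle disease with spinal curvature, had 8.86, 9.06 and 9.48 (lowest, median, highest) with dystrophin siRNA, against 11.18, 11.18, 11.18 and 11.08 untreated. The untreated arrays were nearly equal and all dystrophin siRNA arrays lay well below them (-2.05, SE 0.15, adjusted p = 1.9e-07), while *Ky* was higher with GL2 siRNA, at 0.69 (adjusted p = 0.039). *Capn3*, a muscle calpain whose human gene is mutated in a limb-girdle dystrophy, was at -1.06 and *Fsd2*, a fibronectin and SPRY domain gene, at -0.97 (adjusted p = 9.8e-05 and 0.00067).

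Of 12 fast-fibre genes 3 were lower by their brightest probe, *Pvalb*, the calcium buffer parvalbumin, at -2.66 (SE 0.18, adjusted p = 5.3e-08), *Myoz1*, calsarcin 2, at -1.87 (SE 0.14, adjusted p = 3.1e-07) and *Mybpc2*, fast myosin-binding protein C, at -1.26 (SE 0.20, adjusted p = 0.0019). By any detected probe 6 of the 12 were lower, and with array clusters as a block 5 were. Their GL2 siRNA values were 1.26 (adjusted p = 0.00092), 0.59 (adjusted p = 0.07) and 0.31 (adjusted p = 0.61), so none of these 3 was lower with both siRNAs. Among 17 slow-fibre and cardiac genes 2 were higher, *Myh7*, slow myosin heavy chain, at 1.42 (SE 0.16, adjusted p = 3.7e-05, beside -2.62 with GL2 siRNA, adjusted p = 4.4e-08) and *Tpm3*, slow tropomyosin, at 0.84 (SE 0.16, adjusted p = 0.011). *Mybpc1* was lower, at -0.53 (SE 0.11, adjusted p = 0.017), a call lost without untreated array 1, 3 or 4 (adjusted p up to 0.077), and 5 of the 17 lay below 0. *Tpm3* had 5 other detected probes, of which 1 was also higher (0.89, adjusted p = 0.0075) and the rest were not called. None of 7 embryonic and perinatal muscle genes was called by limma through its brightest probe, nor with array clusters as a block, with 1 lower at an unadjusted p under 0.05. A dimmer probe of 1 of them, *Myl4*, the embryonic atrial light chain, was higher (0.89, adjusted p = 0.014).

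**Figure D2:**
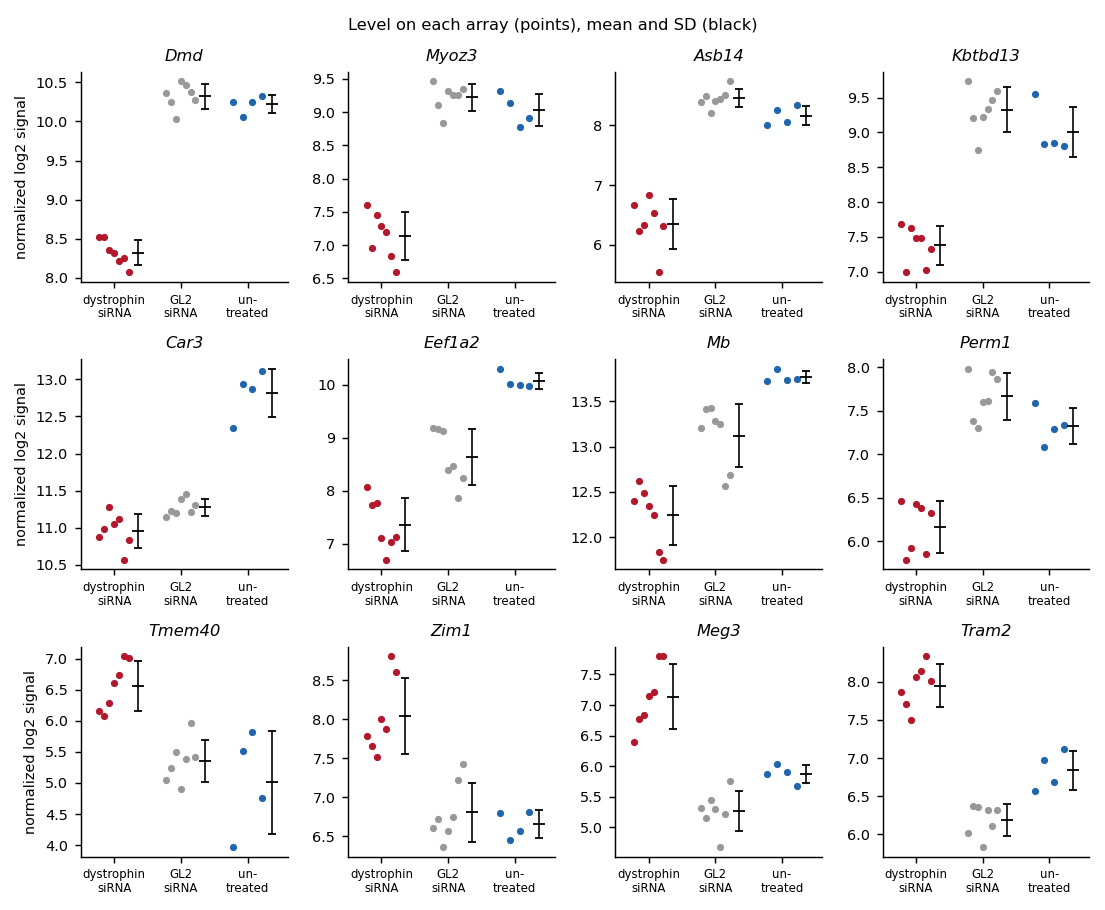
Normalized log2 signal of 12 genes on every array (points) with the mean and SD of each group (black), for dystrophin siRNA (red), GL2 siRNA (grey) and untreated (blue) myotubes. The dystrophin siRNA arrays lie apart from the untreated arrays in each panel, while the GL2 siRNA arrays lie with the untreated ones for *Dmd*, *Myoz3* and *Perm1* and below them for *Car3*, *Eef1a2* and *Mb*.

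In the complex around dystrophin and in costameres 1 of 25 measured genes was higher, *Drp2*, dystrophin-related protein 2, at 0.42 (SE 0.08, adjusted p = 0.016). *Drp2* spanned 10.44, 10.54 and 10.68 on the dystrophin siRNA arrays, against 10.18, 10.11, 10.12 and 10.16 on the untreated arrays, a narrow but complete separation. The call was lost without untreated array 2, 3 or 4 (adjusted p up to 0.069). *Utrn*, utrophin, the autosomal relative of dystrophin, was at 0.01 (adjusted p = 0.99).

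Genes of oxygen handling and energy supply followed. Of 17 oxidative regulators and oxygen carriers 5 were lower and none higher, at a median of -0.43, beside 0.05 with GL2 siRNA. *Car3*, the carbonic anhydrase of slow muscle and fat, gave 10.57, 10.99 and 11.28 on the dystrophin siRNA arrays, against 12.35, 12.93, 12.87 and 13.11 on the untreated arrays. It was separated from the untreated arrays by -1.85 (SE 0.14, adjusted p = 2e-07; a brighter probe was at -1.83), but GL2 siRNA lowered it too, by -1.54 (adjusted p = 4.8e-06), and the direct difference was -0.32 (adjusted p = 0.19). With the array number as a block it was not called by this probe (adjusted p = 0.1) and was called by the brighter one, at -0.37 (adjusted p = 0.033).

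*Mb*, myoglobin, the oxygen store of muscle, had 11.75, 12.34 and 12.62 with dystrophin siRNA, against 13.72, 13.86, 13.74 and 13.75 untreated. The untreated arrays agreed closely and the dystrophin siRNA arrays all lay below them, at -1.53 (SE 0.18, adjusted p = 9.6e-05), with GL2 siRNA at -0.65 (adjusted p = 0.13) and the direct difference at -0.88 (adjusted p = 0.0017). *Perm1*, a muscle regulator of oxidative genes that acts with PGC-1 and ERR factors, was at -1.16 (SE 0.16, adjusted p = 0.00067), beside 0.34 with GL2 siRNA (adjusted p = 0.45). *Lpin1*, a phosphatidate phosphatase and coactivator, and *Sirt5*, a mitochondrial desuccinylase, changed by -0.60 (adjusted p = 0.015) and -0.57 (adjusted p = 0.021), each with an SE of 0.12. The call of *Lpin1* was lost without untreated array 1, 3 or 4 and that of *Sirt5* without untreated array 1, 2 or 4, which left 3 of the 5 without untreated array 1 or 4.

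In the respiratory chain none of 33 measured genes was called by limma, nor with array clusters as a block, 1 was lower at an unadjusted p under 0.05, and 17 lay below 0. In the citric acid cycle and pyruvate oxidation 1 of 22 genes was lower, *Pdk4*, the kinase that switches off pyruvate dehydrogenase, at -0.79 (SE 0.16, adjusted p = 0.015), which was not called without untreated array 2, 3 or 4. Array clusters as a block gave 3 lower genes there. Of 22 fatty acid oxidation genes 2 were lower, *Cpt1b*, the muscle carnitine palmitoyltransferase, at -0.77 (SE 0.13, adjusted p = 0.0054) and *Acadm*, medium-chain acyl-CoA dehydrogenase, at -0.53 (SE 0.12, adjusted p = 0.03). *Cpt1b* was at -0.68 (adjusted p = 0.018) with GL2 siRNA as well. *Acadm* was lost in 8 of 18 leave-one-out fits, those without untreated array 1, 3 or 4 or a dystrophin siRNA array numbered 3 to 7.

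Glycogen and phosphagen genes were also among the lower ones. Of 16 glycogen genes 5 were lower and none higher. *Phkg1*, the catalytic subunit of muscle phosphorylase kinase, was not detected on any of the 7 dystrophin siRNA arrays and was at least 2.15-fold lower there (adjusted p = 1.7e-05). *Ppp1r3c*, a glycogen-targeting subunit of protein phosphatase 1, was at -0.95 (SE 0.15, adjusted p = 0.0017), and *Pygm*, muscle glycogen phosphorylase, at -0.67 (SE 0.11, adjusted p = 0.0041), beside 0.51 with GL2 siRNA (adjusted p = 0.041). *Phkb*, another subunit of the kinase, and *Ganc*, a glucosidase, were at -0.58 and -0.54, and lost their calls without dystrophin siRNA array 5 or untreated array 3 or 4 (*Phkb*) and without untreated array 2 (*Ganc*).

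In glycolysis 3 of 20 genes were lower, *Pfkm*, muscle phosphofructokinase, at -0.62 (SE 0.09, adjusted p = 0.00077), *Eno3* at -0.43 (SE 0.10, adjusted p = 0.04) and *Pgam2* at -0.39 (SE 0.09, adjusted p = 0.039). Without any 1 of the 4 untreated arrays *Eno3* and *Pgam2* were not called, and 13 and 12 of 18 leave-one-out fits lost them. Among 16 phosphagen and purine nucleotide genes 4 were lower and 1 higher. *Ckmt2*, sarcomeric mitochondrial creatine kinase, was at -1.69 (SE 0.15, adjusted p = 2.8e-06), *Ampd1*, muscle AMP deaminase, at -1.33 (SE 0.09, adjusted p = 5.3e-08) and *Adssl1*, the muscle adenylosuccinate synthase of the same purine cycle, at -0.55 (SE 0.09, adjusted p = 0.0045). Both isoforms of AMP deaminase found in other tissues, *Ampd2* and *Ampd3*, were at 0.08 and -0.09 and not called.

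Lipid synthesis had 3 lower genes of 17. *Thrsp*, Spot 14, an activator of fat synthesis that responds to thyroid hormone, spread over 4.03, 5.58 and 6.56 on the dystrophin siRNA arrays, against 7.37, 7.34, 7.62 and 7.55 on the untreated arrays. It was widely scattered within the dystrophin siRNA group (SD 0.90, n = 7), yet the groups did not overlap (-2.04, SE 0.37, adjusted p = 0.0071, beside 0.68 with GL2 siRNA, adjusted p = 0.53). *Mlxipl*, the glucose-sensing factor ChREBP, was not detected on any dystrophin siRNA array and was at least 1.55-fold lower (adjusted p = 0.0051), beside -1.11 with GL2 siRNA (adjusted p = 0.12). *Cidea*, a lipid droplet protein, was at -0.95 (SE 0.15, adjusted p = 0.0019). *Fasn*, *Acaca* and *Acly*, the enzymes of the pathway, were at -0.16, 0.03 and -0.10 and not called. None of 18 cholesterol synthesis genes passed limma's threshold, with or without array clusters as a block, and none did at an unadjusted p under 0.05.

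Pump and channel genes had a median of -0.45 over 21 genes, with 17 below 0, beside -0.22 with GL2 siRNA. Of them 5 were lower and 1 higher, and 11 and 2 with array clusters as a block. *Atp1b4*, a relative of the sodium pump beta subunits that in placental mammals sits in the inner nuclear membrane of muscle, had 8.59, 9.31 and 10.02 with dystrophin siRNA, against 11.61, 10.99, 11.08 and 11.23 untreated. All dystrophin siRNA arrays were lower (-1.96, SE 0.30, adjusted p = 0.0013), but *Atp1b4* was at -1.11 with GL2 siRNA (adjusted p = 0.1), and the direct difference of -0.85 missed the threshold (adjusted p = 0.07). It passed with the array number as a block (adjusted p = 0.00098), which treats same-numbered arrays as pairs, although the labels do not give such a pairing.

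The beta subunits of the pump itself were lower too, *Atp1b2* at -1.45 (SE 0.15, adjusted p = 2.4e-05) and *Atp1b1* at -0.55 (SE 0.10, adjusted p = 0.0054). *Kcnc4*, a voltage-gated potassium channel, was lower with dystrophin siRNA at -1.47 (SE 0.22, adjusted p = 0.0012) and with GL2 siRNA at -1.91 (adjusted p = 0.00011). *Kcnc1*, of the same channel family, was at -0.99 (SE 0.19, adjusted p = 0.01), beside 0.53 with GL2 siRNA (adjusted p = 0.26). *Kcnn3*, a calcium-activated potassium channel, was higher, at 0.79 (SE 0.17, adjusted p = 0.03), and its call was lost without any 1 of the untreated arrays or without dystrophin siRNA array 2.

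At the neuromuscular junction 3 of 13 genes were lower and at the triad, where the membrane signal releases calcium, 3 of 19. *Chrne*, which encodes the acetylcholine receptor subunit of adult fibres, was at -1.77 (SE 0.27, adjusted p = 0.0016), beside 1.44 with GL2 siRNA (adjusted p = 0.014). *Ache*, acetylcholinesterase, was detected on no dystrophin siRNA array and was at least 1.45-fold lower (adjusted p = 0.007), beside 1.60 with GL2 siRNA (adjusted p = 0.014). *Casq1*, the calcium-binding protein of the fast-fibre store, was at -0.70 (SE 0.11, adjusted p = 0.0026). *Chrng*, the fetal receptor subunit, was at -0.03 and not called. The other calls were *Sypl2* at -0.52 and 2 that single arrays decided, *Lynx1* at -0.53 (lost in 10 of 18 fits) and *Tmem38a* at -0.48 (lost in 8), each among others without any 1 of the untreated arrays.

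Several adaptors of ubiquitin ligases were lower. Of 20 ASB and other muscle ligase genes 7 were lower and 1 higher. *Asb14*, an ankyrin-repeat and SOCS-box protein that brings substrates to cullin 5 ligases, had 5.54, 6.33 and 6.84 on the dystrophin siRNA arrays, against 8.0, 8.25, 8.05 and 8.34 on the untreated arrays. All untreated arrays lay above all dystrophin siRNA arrays, and the change was -1.81 (SE 0.18, adjusted p = 8.6e-06), beside 0.29 with GL2 siRNA (adjusted p = 0.57). Its other detected probe was lower too, at -1.25 (adjusted p = 0.0019).

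*Asb12* was at -1.25 (SE 0.13, adjusted p = 1.7e-05), *Fbxo31*, an F-box adaptor of cullin 1 ligases, at -1.03 (SE 0.13, adjusted p = 0.0002), and *Trim7*, a ligase that binds glycogenin, was not detected on any dystrophin siRNA array and was at least 1.1-fold lower (adjusted p = 0.004). *Asb2*, *Asb16* and *Asb8* were at -0.56, -0.54 and -0.40. Their calls were lost without untreated array 1 (all 3), without untreated array 4 or dystrophin siRNA array 6 (*Asb16* and *Asb8*), without untreated array 2 or dystrophin siRNA array 5 (*Asb16*) and without untreated array 3 or dystrophin siRNA array 7 (*Asb8*), so that 4 of the 7 held without untreated array 1. *Smurf2*, a ligase for TGF-beta receptors, was higher at 0.46 (SE 0.09, adjusted p = 0.013), a call lost without untreated array 2, 3 or 4. Among 24 autophagy and lysosome genes 3 were lower (5 with array clusters as a block), among them *Neu2*, cytosolic sialidase, at -1.12 (SE 0.11, adjusted p = 7.5e-06) and *Sgsh*, a heparan sulphatase, at -1.35 (SE 0.24, adjusted p = 0.0054), whose other detected probe was at -0.50 (adjusted p = 0.55). In the proteasome 1 of 25 genes was called, *Psme4*, at -0.44, a call lost without any 1 of the untreated arrays.

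Muscle forms of the translation machinery were among the most lowered genes of the array. *Eef1a2*, the elongation factor of muscle and neurons that replaces Eef1a1 after birth, had 6.70, 7.13 and 8.07 on the dystrophin siRNA arrays, against 10.30, 10.01, 9.99 and 9.97 on the untreated arrays. The signal left was 15.3% (-2.71, SE 0.27, adjusted p = 9.4e-06). GL2 siRNA gave -1.44 (adjusted p = 0.012) and the direct difference was -1.27 (adjusted p = 0.0017).

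*Rpl3l*, the muscle paralog of ribosomal protein L3, had 5.74, 6.39 and 6.77 with dystrophin siRNA, against 9.19, 8.82, 9.0 and 9.12 untreated. Every dystrophin siRNA array was far below the untreated arrays (-2.67, SE 0.17, adjusted p = 3.5e-08), beside 0.50 with GL2 siRNA (adjusted p = 0.22). No other of the 24 measured ribosomal and elongation genes was called.

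Several genes outside the lists were among those with the largest changes. *Rec8*, a cohesin subunit of meiosis, had 3.32, 4.03 and 4.55 with dystrophin siRNA, where no array detected it, against 6.92, 6.12, 6.98 and 7.25 untreated. The drop was at least 3.50-fold (adjusted p = 3.2e-05), and *Rec8* was lower with GL2 siRNA too (-1.57, adjusted p = 0.025), with a direct difference of -1.38 (adjusted p = 0.0048).

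*Dupd1*, a muscle phosphatase of dual specificity, gave 3.86, 4.20 and 5.03 with dystrophin siRNA, where 1 of 7 arrays detected it, against 6.38, 6.88, 6.47 and 6.74 untreated. No array of one group reached the other (-2.32, SE 0.24, adjusted p = 2.1e-05), and the GL2 siRNA arrays were on the other side of the untreated ones, at 0.96 (adjusted p = 0.087). *Nctc1*, a noncoding RNA made at a muscle enhancer near *Igf2* and *H19*, had 4.52, 4.89 and 5.32, against 6.64, 7.10, 6.56 and 6.81. It was lower without overlap (-1.80, SE 0.20, adjusted p = 3.1e-05), while *Igf2* was at 0.09 and not called.

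*2310040G24Rik* and *2900076A07Rik*, which have no described role here, and *Cracdl* were not detected on any dystrophin siRNA array and were at least 2.67-, 1.13- and 1.31-fold lower (adjusted p = 3.7e-05, 1.2e-05 and 0.0038). *Lrrc30*, a leucine-rich repeat gene, averaged 3.06 on the dystrophin siRNA arrays, of which none detected it, and 4.78 on the untreated arrays, of which 1 did (adjusted p = 0.0006). With GL2 siRNA *Lrrc30* was higher, at 1.32 (adjusted p = 0.011). All 7 GL2 siRNA arrays detected it, and only through them did *Lrrc30* meet the detection filter. The dystrophin siRNA and untreated arrays lay mostly below detection for *Lrrc30*, so the size of its drop is not known and no bound is given.

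The plot of the ranked genes sets the 3 comparisons side by side. Of the lower genes, *Rec8*, *Eef1a2* and *Car3* were called lower with GL2 siRNA as well and *Lrrc30* was called higher with it. The direct difference between the siRNAs missed the threshold for *Atp1b4*, *Car3* and *Mlxipl*, and with the array number as a block it missed for *Mlxipl* and the *Car3* probe shown (adjusted p = 0.14 and 0.1). These comparisons share their dystrophin siRNA or untreated arrays.

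**Figure D3:**
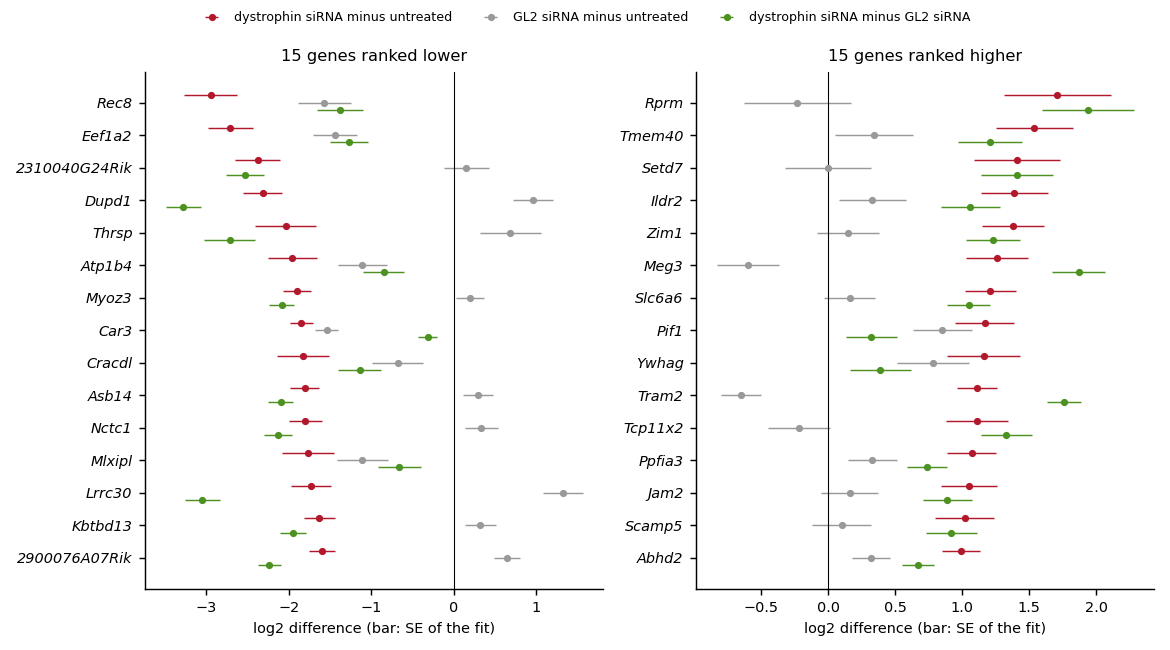
Log2 differences (x axis) with the SE of the fit for the 15 genes with the largest lower changes (left) and the 15 with the largest higher changes (right) that the study's text does not name. Red is dystrophin siRNA minus untreated, grey GL2 siRNA minus untreated and green dystrophin siRNA minus GL2 siRNA, and grey lies near 0 for *Myoz3* (0.19) and *Zim1* (0.15) but at -1.54 for *Car3*.

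Higher genes were fewer and weaker. *Tmem40*, a membrane protein gene, had 6.07, 6.61 and 7.04 on the dystrophin siRNA arrays, against 3.97, 5.51, 5.82 and 4.75 on the untreated arrays, of which 2 detected it. The untreated arrays were the more scattered ones (SD 0.40 with dystrophin siRNA against 0.83 untreated), but did not reach the dystrophin siRNA arrays, and the change was 1.54 (SE 0.29, adjusted p = 0.0084), beside 0.34 with GL2 siRNA (adjusted p = 0.72). *Ildr2*, an immunoglobulin-like membrane receptor, was at 1.39 (SE 0.25, adjusted p = 0.0075).

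*Tram2*, a membrane protein of the secretory pathway that takes part in collagen synthesis, had 7.50, 8.01 and 8.34 with dystrophin siRNA, against 6.57, 6.97, 6.69 and 7.12 untreated. It was higher without overlap (1.11, SE 0.15, adjusted p = 0.00054), with GL2 siRNA on the other side at -0.65 (adjusted p = 0.056) and a direct difference of 1.76 (adjusted p = 3.8e-08). *Slc6a6*, the taurine transporter, was detected on all 7 dystrophin siRNA arrays and on no untreated array, and was at least 1.98-fold higher (adjusted p = 0.0022), although its other detected probe was at -0.06 (adjusted p = 0.92). *Abhd2*, a lipid hydrolase, was at 0.99 (SE 0.14, adjusted p = 0.00057), and a second detected probe of it was also higher, at 0.63 (adjusted p = 0.034).

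Imprinted genes gave 3 higher of 23 and none lower, or 3 higher and 1 lower with array clusters as a block. *Zim1*, a maternally expressed zinc finger gene beside *Peg3*, had 7.52, 7.87 and 8.81 with dystrophin siRNA, against 6.80, 6.45, 6.57 and 6.81 untreated. *Meg3*, a maternally expressed long noncoding RNA, had 6.39, 7.14 and 7.80, against 5.87, 6.04, 5.91 and 5.68. *Zim1* and *Meg3* were chosen among probes without overlap between the groups. The changes were 1.38 (SE 0.23, adjusted p = 0.0039) for *Zim1* and 1.26 (SE 0.23, adjusted p = 0.0078) for *Meg3*, beside 0.15 and -0.60 with GL2 siRNA (adjusted p = 0.87 and 0.31).

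*Usp29*, which lies in the same imprinted cluster as *Zim1* but is paternally expressed, was higher at 0.72 (SE 0.14, adjusted p = 0.014), a call lost without untreated array 1, 3 or 4 (adjusted p up to 0.062). Their neighbours did not follow: *Peg3* was at 0.04, and *Dlk1* and *Rian*, beside *Meg3*, were at 0.03 and -0.01, none of them called.

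*Jam2*, a junctional adhesion molecule, was at 1.05 (SE 0.21, adjusted p = 0.015) and *Tcp11x2*, an X-linked relative of a testis gene, at 1.11 (SE 0.23, adjusted p = 0.017). The call of *Jam2* was lost without untreated array 2 or 3 and that of *Tcp11x2* without untreated array 1, 2 or 3. Of the other detected *Jam2* probes, 1 was also higher (0.69, adjusted p = 0.034). The rest, at 0.47 and 0.11, were not called (adjusted p = 0.49 and 0.96). *Ppfia3*, liprin alpha 3, a scaffold of synapses, was detected on 6 of 7 dystrophin siRNA arrays and on no untreated array, and was at least 1.25-fold higher (adjusted p = 0.0033). It too met the filter of 4 arrays only through siRNA-treated arrays. The remaining calls among the 15 rested on single arrays. *Rprm*, *Setd7*, *Ywhag*, *Scamp5* and *Pif1* were lost in 13, 10, 13, 6 and 1 of 18 leave-one-out fits, *Ywhag* among others without untreated array 1, 2 or 3, *Scamp5* without untreated array 2, 3 or 4, *Pif1* without untreated array 1, and *Rprm* and *Setd7* without any 1 of them. Other probes of *Ywhag*, *Scamp5*, *Setd7* and *Pif1*, detected on all 18 arrays, were at 0.01, -0.08, -0.08 and 0.21 and not called. A further *Setd7* probe, detected on 11 arrays, was at 1.30 (adjusted p = 0.053).

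Of 23 myogenic factors 2 were higher and 1 lower, or 4 and 1 with array clusters as a block. *Prox1*, a homeobox factor of slow fibres, was at 1.52 (SE 0.27, adjusted p = 0.0054) and *Tead4*, a Hippo pathway factor of early myogenesis, at 0.75 (SE 0.15, adjusted p = 0.015, lost without untreated array 1 or 3). *Lmcd1* was at -0.56 and lost in 7 of 18 fits, among them those without any 1 of the untreated arrays. *Myod1*, *Myog*, *Mef2c* and *Myf6* were at 0.52, 0.46, -0.06 and -0.39 and not called.

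Of 10 genes of peptidylarginine deiminases, ADP-ribosyltransferases and NAD metabolism 5 were lower and none higher. The study had already picked out *Padi2* from these arrays, so that this count is not independent evidence of a direction. The same holds for other lists above whose called genes the study named, such as *Pvalb*, *Myoz1*, *Mybpc2*, *Ky* and *Capn3*. *Padi2*, a peptidylarginine deiminase, was at -1.41 (SE 0.25, adjusted p = 0.0073), *Art3*, an ADP-ribosyltransferase-like protein, at -1.16 (SE 0.17, adjusted p = 0.0012) and *Nmrk2*, the muscle nicotinamide riboside kinase, at -0.75 (SE 0.15, adjusted p = 0.013, lost without untreated array 1 or 4), beside 1.13 with GL2 siRNA (adjusted p = 0.0004). Another *Art3* probe, detected on 13 arrays, was at -0.18 (adjusted p = 0.9). *Padi1* and *Art5* were at -0.84 and -0.51 and lost their calls without any 1 of the untreated arrays, so that without untreated array 1 or 4 the list had 2 lower genes.

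Among stress genes, *Hspb6* and *Hspb7*, small heat shock proteins of muscle, were lower. *Hspb6* was at -0.98 (adjusted p = 0.0022) and *Hspb7* at -0.53 (adjusted p = 0.0068). With the array number as a block, the direct difference from GL2 siRNA was -1.17 for *Hspb6* (adjusted p = 5.9e-06). That of *Hspb7* was -0.16 and missed the threshold (adjusted p = 0.27). *Dnajc16*, a DnaJ family chaperone and the 1 higher gene of 19 chaperones (2 with array clusters as a block), was at 0.65 (adjusted p = 0.0068). *Mt3*, a metallothionein that binds zinc and copper, was the 1 called gene of 20 antioxidant genes. It had 4.38, 4.87 and 5.36 with dystrophin siRNA, where 2 of 7 arrays detected it, against 6.44, 6.65, 6.66 and 6.36 untreated. That was a change of -1.66 (SE 0.20, adjusted p = 0.00011), beside 0.74 with GL2 siRNA (adjusted p = 0.12). Of 16 p53 targets 2 were lower and 1 higher. *Sesn1*, a sestrin that restrains mTORC1, was at -0.66 (SE 0.10, adjusted p = 0.00089), and *Cdkn1a*, the cell cycle inhibitor p21, was at -0.61 (SE 0.12, adjusted p = 0.016, lost without untreated array 2, 3 or 4). *Bok*, a member of the Bcl-2 family, was higher at 0.62 (SE 0.11, adjusted p = 0.0078).

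Of 22 synaptic and neuronal genes 1 was lower and 4 higher, but 6 were lower and 5 higher with array clusters as a block. *Gabrd*, the delta subunit of the GABA-A receptor, had 4.69, 5.37 and 6.43 with dystrophin siRNA, against 7.85, 7.75, 7.77 and 7.58 untreated. Its untreated arrays were tightly grouped above all the others, and the change was -2.19 (SE 0.26, adjusted p = 8.8e-05), beside 0.06 with GL2 siRNA (adjusted p = 0.96). Besides *Ppfia3*, the higher ones were *Opn3*, an opsin found outside the eye, at 1.16, *Tmem108* at 0.73 and *Htr2b*, a serotonin receptor, at 0.66. These 3 lost their calls without untreated array 1 or 3, which left *Ppfia3*.

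Of 33 microtubule genes 3 were lower and 3 higher (4 and 5 with array clusters as a block), with *Clip4*, a plus-end binding protein, at -1.58 (SE 0.11, adjusted p = 5.3e-08) by 1 of 3 probes that were all lower. *Map7*, which recruits kinesin to microtubules, was higher at 0.71 (SE 0.13, adjusted p = 0.0059). In the MAP kinase list 2 of 35 were lower and 2 higher, in the Wnt list 1 of 26 each way, in the IGF and insulin list 1 of 28 each way, and in the TGF-beta list 2 of 26 were lower, among them *Nog*, the BMP antagonist noggin, at -0.99 (SE 0.17, adjusted p = 0.0043), counts that moved by up to 2 when 1 array was left out. With array clusters as a block the IGF and insulin list had 2 lower and 1 higher and the TGF-beta list 3 lower and 1 higher. Over all genes 1.83% were lower and 0.681% higher, so counts of 1 or 2 in lists of this size are not read as a result about a pathway.

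**Figure D4:**
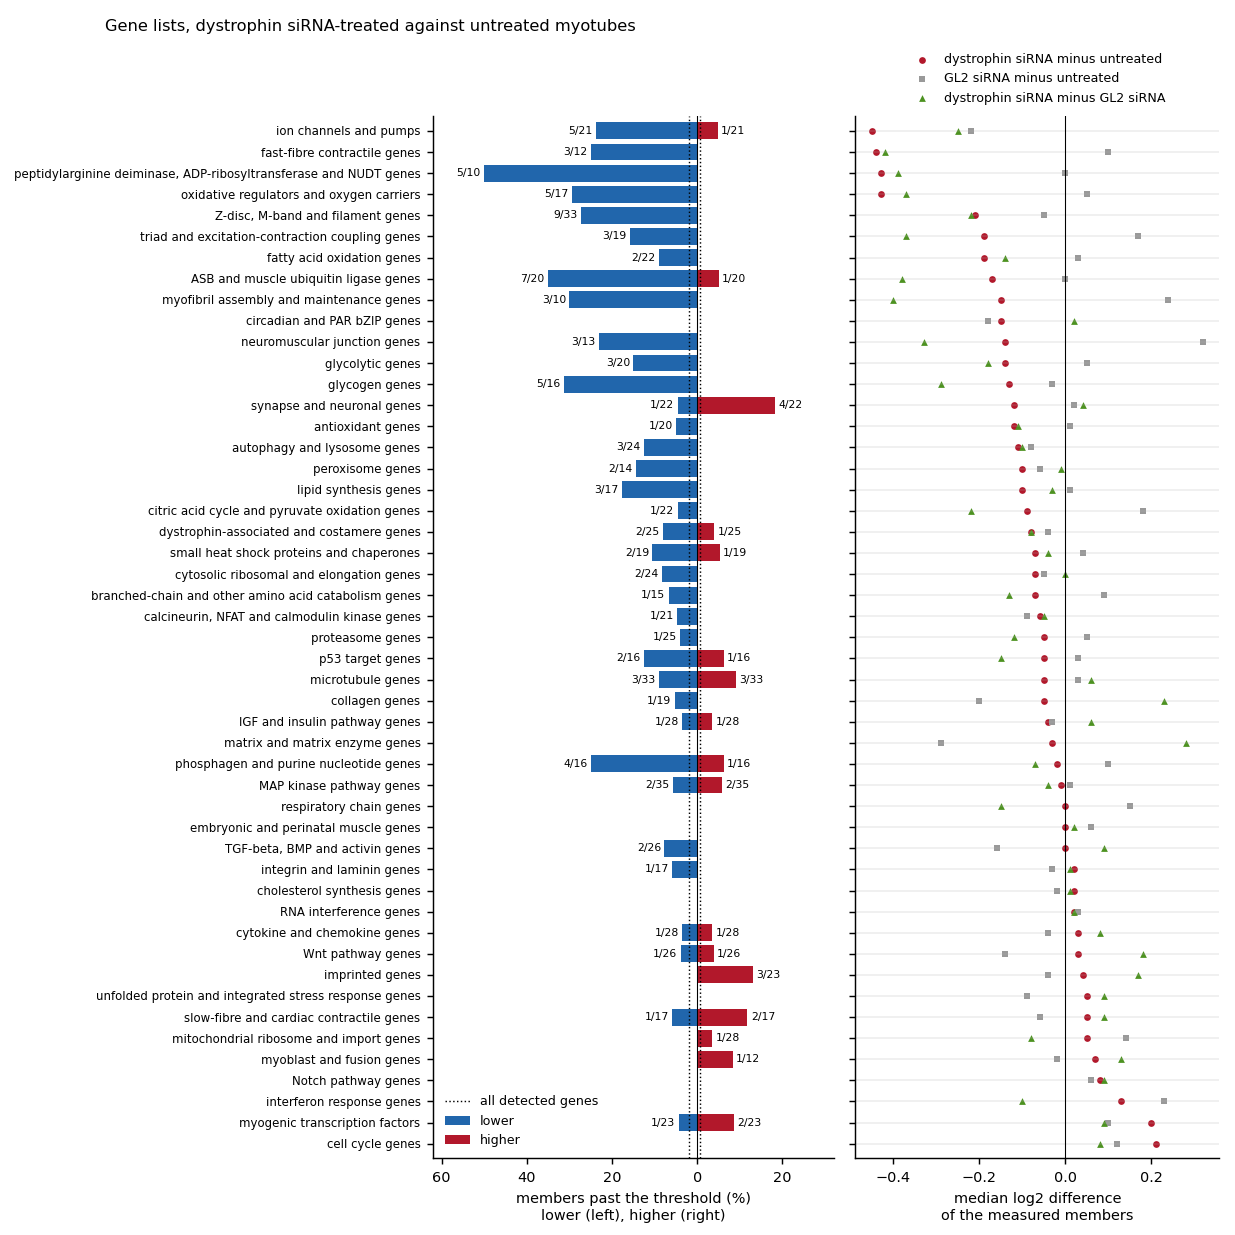
For each gene list shown, the share of measured members called lower (blue, left) or higher (red, right) with their counts, beside the shares over all detected genes (dotted, 1.83% and 0.681%), and on the right the median log2 difference in the 3 comparisons. Pump (-0.45), fast-fibre (-0.44), oxygen (-0.43) and peptidylarginine deiminase (-0.43) lists have the lowest medians for dystrophin siRNA minus untreated, and the cell cycle list has the highest, with a median of 0.21 and no call.

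Other lists had no call. Of 36 cell cycle genes none passed limma's threshold by its brightest probe, although 32 lay above 0, the median was 0.21 (beside 0.12 with GL2 siRNA and 0.01 over all genes) and 12 were higher at an unadjusted p under 0.05. Over all genes 6.59% were higher at that threshold and 14.6% either way. The nearest were *Sgo2a*, a guardian of chromosome cohesion, at 0.43 (adjusted p = 0.05), *Clspn*, a replication checkpoint protein, at 0.41 (adjusted p = 0.064) and *Smc2*, a condensin subunit, at 0.45 (adjusted p = 0.082). Another *Smc2* probe was called (0.51, adjusted p = 0.044). With array clusters as a block, 4 of the 36 were called, all higher. Of 22 interferon response genes none passed and 7 were higher at an unadjusted p under 0.05, with a median of 0.13, beside 0.23 with GL2 siRNA, and the block fit called none. None of 28 matrix genes, 22 unfolded protein response genes, 16 RNA interference genes, 15 circadian genes or 9 Notch pathway genes passed limma's threshold, and at an unadjusted p under 0.05 these lists had 1, 0, 2, 6 and 0 genes. Fits with the clusters as a block called 1 matrix, 2 RNA interference and 1 circadian gene and none of the other 2 lists.

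Promoters of the called genes were searched for the E-boxes CAGCTG and CACCTG, which myogenic factors bind, and for the MEF2 site, on both strands, in the 300 bases around each RefSeq start site (build GRCm38.p6, 1 promoter a gene). Promoters were found for 171 of 218 genes with a probe called lower and 82 of 104 with one called higher. The MEF2 site lay in 14 of 171 promoters of lower genes (8.19%) and in 0 of 82 of higher genes, beside 2.06% for all detected genes and 3.26% for all promoters. An E-box of either kind lay in 40.9% of the promoters of lower genes, 31.7% of those of higher genes, 29.8% for all detected genes and 32.6% for all promoters. A match is a description of the sequence only. The sequences below are shown because they belong to lower genes of 3 groups described above, the ligase adaptor *Asb16*, the muscle protease *Capn3* (-1.06, SE 0.13, adjusted p = 9.8e-05) and the glycolytic enzyme *Pgam2*, and hold both kinds of site, with the E-boxes and MEF2 sites in capitals. They lie at chr11:102268501-102268800 (plus strand), chr2:120463343-120463642 (plus strand) and chr11:5803747-5804046 (minus strand).
Asb16: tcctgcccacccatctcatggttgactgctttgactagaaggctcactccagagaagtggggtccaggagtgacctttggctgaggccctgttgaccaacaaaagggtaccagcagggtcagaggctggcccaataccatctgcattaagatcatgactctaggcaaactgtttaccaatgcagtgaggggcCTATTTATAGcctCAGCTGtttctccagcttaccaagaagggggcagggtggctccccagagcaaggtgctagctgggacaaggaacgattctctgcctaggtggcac
Capn3: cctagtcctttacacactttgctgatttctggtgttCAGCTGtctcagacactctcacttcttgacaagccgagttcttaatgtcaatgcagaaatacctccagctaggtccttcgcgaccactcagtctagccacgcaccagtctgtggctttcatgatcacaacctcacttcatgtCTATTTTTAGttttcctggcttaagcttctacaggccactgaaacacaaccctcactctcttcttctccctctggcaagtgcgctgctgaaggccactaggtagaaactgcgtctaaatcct
Pgam2: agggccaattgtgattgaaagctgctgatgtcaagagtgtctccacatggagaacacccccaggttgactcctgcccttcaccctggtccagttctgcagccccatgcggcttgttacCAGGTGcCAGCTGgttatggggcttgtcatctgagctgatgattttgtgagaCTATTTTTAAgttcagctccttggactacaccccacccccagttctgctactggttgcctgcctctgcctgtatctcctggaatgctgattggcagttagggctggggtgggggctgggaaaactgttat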

How the data were processed

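RNA of 18 primary myotube cultures (7 dystrophin siRNA, 7 GL2 siRNA, 4 untreated) was hybridised to Illumina MouseWG-6 v1.1 arrays. The authors deposited the mean bead intensity and a detection p-value for each probe, exported without background correction or normalization, and a second table of intensity values after RMA background correction, log2 transformation and quantile normalization with lumi (version not given in the sources used here). From the deposited intensity the same background model, log2 and quantiles were applied, and differed from the authors' table by a median of 0.00248 on the log2 scale. limma 3.58.1 in R 4.3.3 was fitted over all 18 arrays without covariates, with Benjamini-Hochberg adjustment over all 46632 probes and a threshold of 0.05. Counts were made over probes detected on at least 4 arrays, and no pairing entered the fit. Deviations from the group means correlated between same-numbered dystrophin siRNA and GL2 siRNA arrays in all 7 pairs (0.348 to 0.5132). Differently numbered arrays of the same cluster could correlate as much. GL2 siRNA array 4 was at 0.4138 with dystrophin siRNA array 5 and at 0.348 with array 4. These values therefore do not settle a pairing by number, which the labels do not give. Same-numbered arrays did not correlate in all 4 pairs with untreated arrays (-0.062 to 0.2167 for dystrophin siRNA). A gene stood for its brightest probe detected on at least 4 arrays. GEO's platform annotation gave 29976 probes 1 symbol, 10 several and 16547 none, and 99 more names came from the study's supplementary tables. Named genes were *Dmd*, the 15 largest changes in each direction among called probes whose groups did not overlap and that the study's text does not name (separation is thus part of their choice), list members that were called, up to 3 members of lists with none, and cell type markers. *Myl4*, the other probes of named genes, and uncalled genes set beside called ones were chosen after their values were seen. A probe detected on no array of a group has only a bound there, and met the filter of 4 arrays through the other groups. This held for 19 of the 270 lower probes (no dystrophin siRNA array) and 13 of the 120 higher ones (no untreated array). The 50 gene lists and the members were chosen with earlier results of these data known. Alternatives were other normalizations, backgrounds, filters, blocks and leaving out each array. The fit was tested on simulated data. Some results are not reported here.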

Additional observations from a re-analysis of the deposited data

Results flagged for a closer look

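For the genes with values in the text, 18 of 244 groups of 4 or 7 arrays (7.38%) held 1 array far from the others, where chance flags about 1 in 20. In the dystrophin siRNA group, array 1 was apart for *Slc6a6* (5.38, the other 6 between 5.93 and 6.27), *Pvalb* (10.02, against 8.77 to 9.08), *Atp1b2* (8.25, against 7.20 to 7.60), *Acadm* (10.79, against 10.44 to 10.54) and *Map7* (6.64, against 7.08 to 7.33). Array 6 was low for *Myot* (8.03, against 8.63 to 9.03), *Pfkm* (13.52, against 13.74 to 13.84) and *Asb12* (7.31, against 7.85 to 8.13), and array 4 was high for *Capn3* (8.46, against 7.90 to 8.13). Among untreated arrays, array 1 was apart for *Eef1a2* (10.30, against 9.97 to 10.01), *Kbtbd13* (9.55, against 8.80 to 8.84) and *Chrne* (5.35, against 6.37 to 6.53). Untreated array 2 was apart for *Tcap* (13.92, against 14.13 to 14.16), *Pfkm* (14.24, against 14.40 to 14.43), *Pgam2* (14.50, against 14.57 to 14.58) and *Usp29* (6.35, against 6.11 to 6.14), and untreated array 4 for *Art5* (8.54, against 8.35 to 8.38) and *Ky* (11.08, against 11.18 on the other 3).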

How the results depend on the processing

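Leaving out 1 array gave 223 to 425 called probes for dystrophin siRNA against untreated, of which 43 to 139 were higher and 180 to 286 lower. The same fits gave 139 to 351 for GL2 siRNA against untreated (207 without GL2 siRNA array 4) and 1347 to 1604 between the siRNAs, and *Dmd* stayed between -1.95 and -1.85. For dystrophin siRNA against untreated, 709 probes were called with an offset of 50 in the background model (264 higher, 445 lower), 720 with no background correction (273 higher, 447 lower), 737 when only probes detected on at least 4 arrays were fitted (279 higher, 458 lower) and 780 when only probes detected on all arrays were (329 higher, 451 lower). Only the groups compared gave 248 (59 higher), clusters of arrays as a block 640 (240 higher) and median centring 71 higher. In the same order of the first 4 settings, GL2 siRNA against untreated had 820, 836, 811 and 912 calls and the difference between siRNAs 2477, 2509, 2713 and 2661. With only the groups compared GL2 siRNA had 205 calls, and with clusters as a block 901, beside 2501 between the siRNAs. Filters change the number of probes tested. For the other settings the cause was not tested.

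With the array number as a block (replicate block), 306 probes were called for dystrophin siRNA against untreated, 62 of them higher, and 263 for GL2 siRNA, where same-numbered arrays were not all correlated. Between the siRNAs, where same-numbered arrays were all correlated but a pairing by number is not settled, the block gave 2221 calls. Of the direct differences printed in the report, apart from those of Z-disc and heat shock genes, given only with the block, it changed the call of *Atp1b4* and, by its brighter probe, *Car3*. Among called genes without a direct difference above, *Sirt5*, *Mybpc1*, *Lmcd1*, *Padi1*, *Cpt1b*, *Kcnc4*, *Pif1* and *Ywhag* were among those that missed the direct threshold with the block (adjusted p from 0.062 to 0.72). Of 144 called named genes besides *Dmd*, 34 lost their call with the replicate block, 44 with only the groups compared, 16 with median centring, 0 to 3 in each other setting, and 4 to 47 in fits without 1 array (41, 40, 47 and 39 without untreated array 1, 2, 3 and 4). Of 145 including *Dmd*, 82 were called in every setting that could be fitted, 89 in every fit without 1 array, and 0 changed direction. The 4 untreated arrays limit every comparison with them.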
